A study of Mus musculus with 4 samples.

Results

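The Popeye domain genes Popdc2, Bves (also written Popdc1) and Popdc3 were taken by symbol from the m6A peak lists of mouse heart. These 3 genes, of 12182 genes with a called peak, held 3 of the 21179 Wtap-CKO peaks and 6 of the 20766 Wtapflox/flox peaks. The data came from Wtap-CKO mice and from Wtapflox/flox mice, which carry the floxed Wtap allele and served as the control, all at 4 days of age. The RNA of 8 Wtap-CKO hearts and of 7 Wtapflox/flox hearts was pooled by genotype, and 1 anti-m6A immunoprecipitation (IP) library and 1 input library were sequenced from each pool. The labels do not name the Cre line behind the deletion. With 1 pool per genotype no difference between the lists has a replicate check, no test was made, and all values below are descriptions. The set was chosen by gene symbol with the called peaks, folds and p-values of both lists already in view, so these values are no independent support for anything said of the genes.

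Popeye proteins are membrane proteins of heart and skeletal muscle whose cytoplasmic Popeye domain binds cAMP. They are thought to act as cAMP effectors beside protein kinase A, the exchange factors Epac and the pacemaker channels, and BVES and POPDC2 bind the potassium channel TREK-1. Mice without Popdc2 or Bves develop a slow sinus rhythm under stress, and variants of the human genes are known in heart block and in limb-girdle muscular dystrophy. N6-methyladenosine (m6A) is added to mRNA by a writer complex in which WTAP holds the catalytic METTL3 and METTL14 subunits at nuclear speckles. In mammalian mRNA the mark is found mainly near stop codons, in 3′ untranslated regions and in long internal exons.

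All 3 Popeye genes had 2 called peaks in Wtapflox/flox hearts and 1 in Wtap-CKO hearts, and in each of them the Wtapflox/flox peak nearest the 3′ end had no Wtap-CKO counterpart. A counterpart is a peak in the other list on the same strand with 1 or more exonic bases in common. By this rule 1 of the 3 Wtap-CKO peaks and 4 of the 6 Wtapflox/flox peaks had none. Over all genes, 24.5% of Wtap-CKO peaks and 23.9% of Wtapflox/flox peaks had none. A gene with more peaks in one list than in the other is more prone to lack counterparts. Among all 698 genes with 2 Wtapflox/flox peaks and 1 Wtap-CKO peak, the 3′ peak had none in 399 (57.2%). That comparison was chosen after the Popeye peaks had been seen. The Popeye peaks covered 719 exonic bases in the Wtap-CKO list (mean fold 4.59) and 2662 in the Wtapflox/flox list (mean fold 5.44), while the summed length of all peaks was 7.05 Mb (mean fold 10.4) and 7.47 Mb (mean fold 9.66) in these lists. Fold here is the authors' own value for each peak, the ratio of IP over input that their peak caller gave within one genotype. It is not a transcript level, and folds of the 2 lists were made separately.

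**Figure D1:**
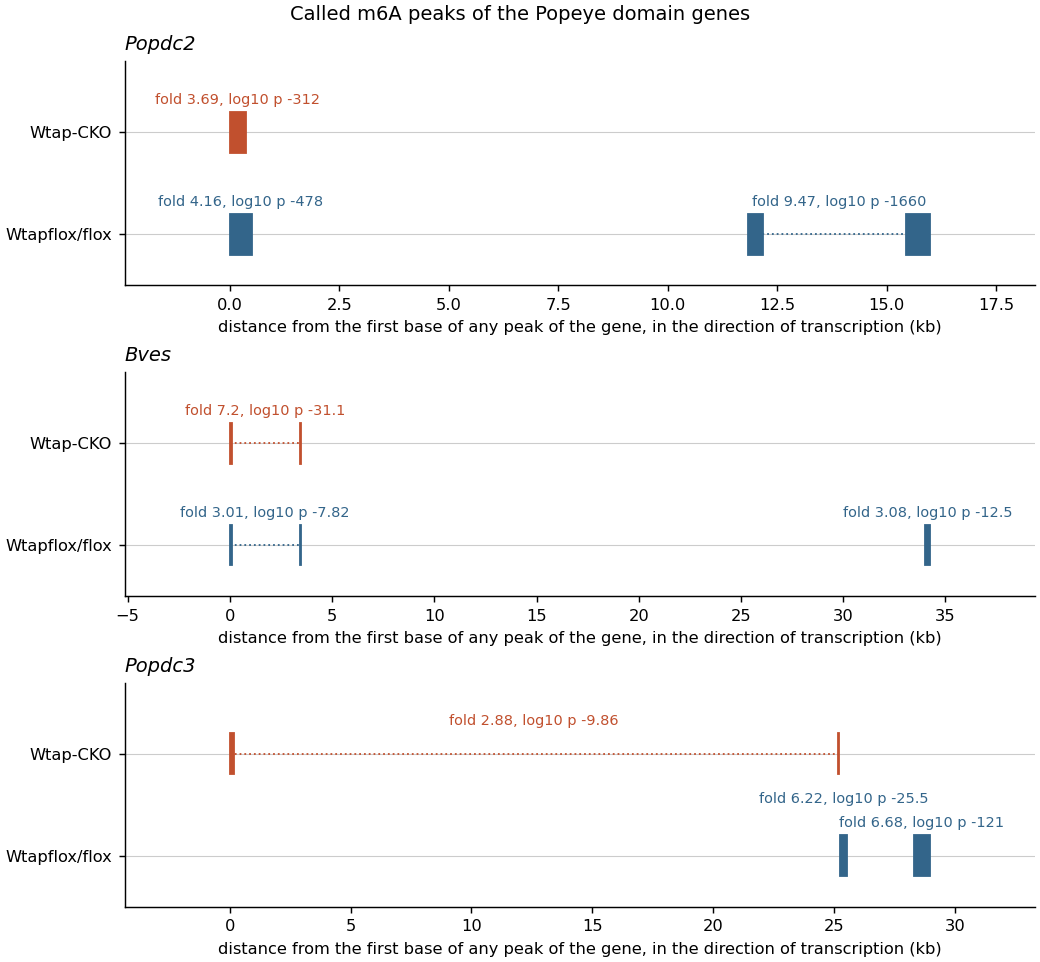
Called m6A peaks of Popdc2, Bves and Popdc3, drawn to scale along each gene (kb from the first base of any of its peaks, 5′ to 3′), with Wtap-CKO peaks above Wtapflox/flox peaks. Filled blocks are exonic blocks of a peak, dotted lines join blocks of one peak, and a thin outline keeps short blocks visible. The Wtapflox/flox peaks at the right of each panel (fold 9.47 in Popdc2, 3.08 in Bves, 6.68 in Popdc3) have no Wtap-CKO peak above them.

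Popdc2, which encodes a Popeye protein of heart and skeletal muscle, lies on the plus strand of chromosome 16 (positions are of build GRCm39). Its 5′ peak was called in both genotypes. In Wtap-CKO hearts it ran from 38182571 to 38182929 with a fold of 3.69, a log10 p of -312 and a log10 q of -309. In Wtapflox/flox hearts it began at the same base and ended 150 bases further, at 38183079, with a fold of 4.16, a log10 p of -478 and a log10 q listed as minus infinity. Every one of the 359 Wtap-CKO bases was also in the Wtapflox/flox peak. Both peaks had a very small p at a modest fold, since 99% of Wtap-CKO peaks and 99.5% of Wtapflox/flox peaks had a larger p, but only 23.2% and 27.1% had a lower fold. A peak of the predicted gene Gm21987 on the same strand, from 38182545 to 38182659, shared 89 bases with this Popdc2 peak in each list (fold 6.36 in Wtap-CKO, 5.50 in Wtapflox/flox). The reads under these 89 bases cannot be given to one gene or the other from the calls.

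The 3′ peak of Popdc2 was called in Wtapflox/flox hearts, from 38194405 to 38198548, in 2 exonic blocks of 335 and 532 bases. It had a fold of 9.47 and a log10 p of -1660, the smallest p of the 4973 Wtapflox/flox peaks without counterpart and the ninth smallest in the whole list (rank 9 of 20766). No Wtap-CKO peak of any gene on either strand overlapped its span, and the nearest Wtap-CKO bases of Popdc2 were 11475 bases away, in the 5′ peak. Of the 9 Wtapflox/flox peaks with a p this small, the Popdc2 peak was the 1 without counterpart. The cutoff was its own p, so this count is no background for that peak. Popdc2 thus had a 5′ peak of very small p and modest fold in both genotypes, in part not separable from Gm21987. Its 3′ peak, of higher fold and smaller p, was called in the Wtapflox/flox list alone.

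Bves, the founding family member, encodes the protein POPDC1 and lies on the plus strand of chromosome 10. Its 5′ peak crossed an exon junction in both genotypes. In Wtap-CKO hearts it ran from 45211868 to 45215356 (blocks of 110 and 41 bases) with a fold of 7.20, a log10 p of -31.1 and a log10 q of -29.6. In Wtapflox/flox hearts it ran from 45211868 to 45215326 (blocks of 110 and 11 bases) with a fold of 3.01, a log10 p of -7.82 and a log10 q of -6.86. The first block was identical, and the second was 30 bases longer in Wtap-CKO. This was the 1 shared Popeye peak with the higher fold and the smaller p in the Wtap-CKO list. Within the lists, 50.8% of Wtap-CKO peaks and 14.8% of Wtapflox/flox peaks had a lower fold than it did, percentages of separately called lists that show no change by themselves.

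The 3′ peak of Bves was called in Wtapflox/flox hearts only, from 45245881 to 45246091, with a fold of 3.08, a log10 p of -12.5 and a log10 q of -11.4. By p it was a peak of middling strength, with a larger p in 55.1% of the list, but only 15.7% of the list had a lower fold. It lay 30554 bases downstream of the 5′ peak. No Wtap-CKO peak on either strand overlapped it. Among Wtapflox/flox peaks with a p as small or smaller, this one included, 750 of 9315 (8.05%, exact 95% interval 7.51 to 8.62) had no counterpart.

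Popdc3, the family member next to Bves on the same strand of chromosome 10, with no other protein-coding gene annotated between them, had peaks in both genotypes but none that overlapped. The Wtap-CKO peak spanned 25194 genomic bases, from 45165498 to 45190691, and held 209 exonic bases in blocks of 174 and 35 bases. Its fold was 2.88, its log10 p -9.86 and its log10 q -8.80, so that 13.9% of Wtap-CKO peaks had a lower fold. It began 123 bases from the end of a Wtapflox/flox peak of the minus-strand gene Gm15934 (45163698 to 45165374, fold 4.17, log10 p -3.05), without overlapping it.

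In Wtapflox/flox hearts the first Popdc3 peak ran from 45190751 to 45191048 with a fold of 6.22, a log10 p of -25.5 and a log10 q of -24.2. It started 59 bases after the last block of the Wtap-CKO peak. The second, from 45193804 to 45194459, had a fold of 6.68, a log10 p of -121 and a log10 q of -119, and lay 3112 bases from the nearest Wtap-CKO bases of the gene. Of 3386 Wtapflox/flox peaks without counterpart in genes that had a Wtap-CKO peak, 155 (4.58%) lay within 59 bases of one, and the median distance was 1378 bases. When peaks within 100 bases were counted as overlapping, a rule added after the data were seen, the Wtap-CKO peak and the first Wtapflox/flox peak of Popdc3 became counterparts. The second Wtapflox/flox peak remained without one.

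**Figure D2:**
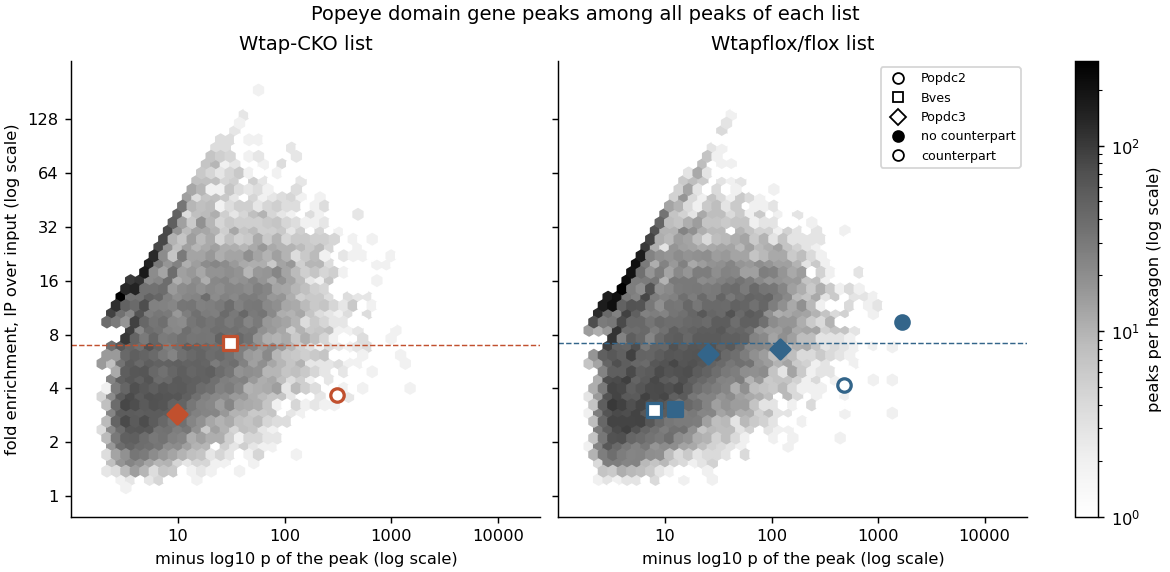
Fold enrichment of IP over input against minus log10 p (both on log scales) for the peaks of the Wtap-CKO list (left) and the Wtapflox/flox list (right), in hexagons shaded by the number of peaks, without 3 Wtap-CKO peaks whose log10 p is listed as minus infinity. Symbols mark Popdc2, Bves and Popdc3, filled where a peak had no counterpart, and dashed lines give each list's median fold (7.03 and 7.22). The Popdc2 3′ peak (fold 9.47) lies far to the right in the Wtapflox/flox panel, and 7 of the 9 Popeye peaks lie below the median line of their list.

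The Popeye peaks differed more in p than in fold. Folds lay between 2.88 and 7.20 in the Wtap-CKO list and between 3.01 and 9.47 in the Wtapflox/flox list. Above the median fold of their list were 1 of 3 Wtap-CKO peaks, that of Bves (7.20 against 7.03), and 1 of 6 Wtapflox/flox peaks, the 3′ peak of Popdc2 (9.47 against 7.22). Among peaks of 0.5 to 2 times its exonic width, 40.8% of Wtapflox/flox peaks had a lower fold than the Popdc2 3′ peak, against 61.4% of the whole list. The median log10 p was -31.1 for the Wtap-CKO Popeye peaks and -73.2 for the Wtapflox/flox ones, and it was -8.71 and -10.2 over all peaks of these lists. The p of a peak depends on its read numbers, which the lists do not hold.

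Strength and place set the background for the missing 3′ peaks. Of 1063 Wtapflox/flox peaks with a p no larger than that of the second Popdc3 peak, 40 (3.76%, 2.70 to 5.09) had no counterpart. Of 5765 as strong as the first Popdc3 peak it was 340 (5.90%, 5.30 to 6.54). Each group includes the Popdc3 peak that set its cutoff. Of 2996 genes with 2 Wtapflox/flox peaks, 698 (23.3%, 21.8 to 24.9) had 1 Wtap-CKO peak, as all 3 Popeye genes did. Of the 2996, 1467 (49%) had 2, 641 (21.4%) had more and 190 (6.34%) had none. The opposite arrangement was more common, since of 3119 genes with 2 Wtap-CKO peaks 958 (30.7%, 29.1 to 32.4) had 1 Wtapflox/flox peak. Among those 698 genes, 353 (50.6%) had a counterpart for the 5′ peak only, the arrangement of Popdc2 and Bves. A further 215 (30.8%) had one for the 3′ peak only, 84 (12%) for both and 46 (6.59%) for neither, the arrangement of Popdc3. The 3′ peak had no counterpart in 399 of the 698 (57.2%). These comparisons by place were chosen after the Popeye peaks had been seen.

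Over all genes with several peaks in a list, the peaks nearest the 5′ end lacked a counterpart in 31% of Wtap-CKO and 20.7% of Wtapflox/flox cases. For the peaks nearest the 3′ end it was 17.9% of Wtap-CKO and 25.6% of Wtapflox/flox cases. In genes with exactly 2 Wtapflox/flox peaks, the 3′ one lacked a counterpart in 167 of 1695 cases (9.85%, 8.47 to 11.4) and the 5′ one in 83 of 1291 cases (6.43%, 5.15 to 7.91) when its log10 q was at or below -10. The 3′ peaks of all 3 Popeye genes passed this cutoff, that of Bves by little. Their log10 q was -11.4 in Bves, -119 in Popdc3 and minus infinity in Popdc2.

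**Figure D3:**
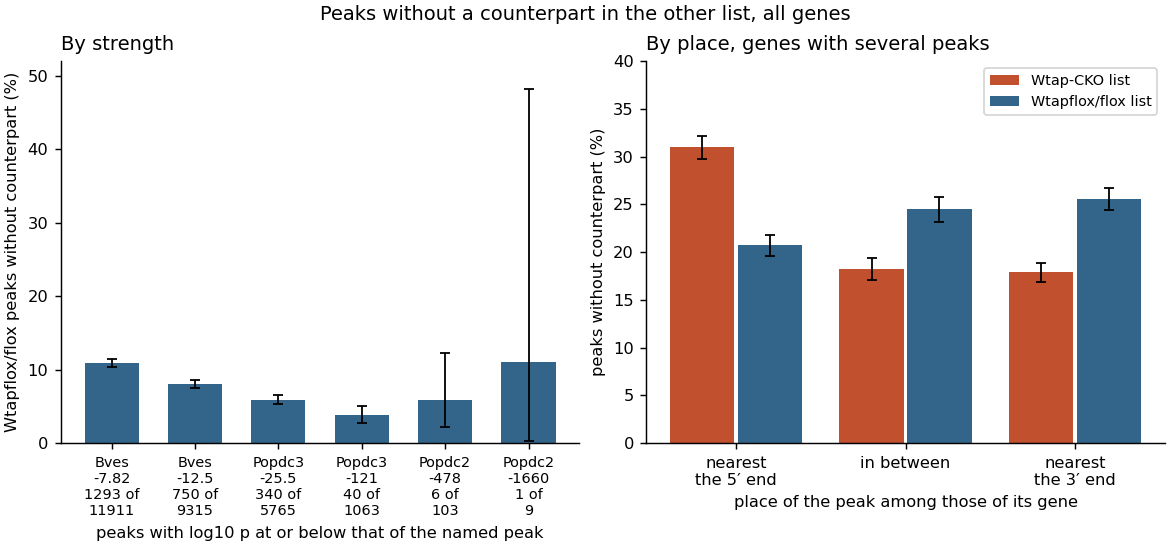
Left, the percentage of Wtapflox/flox peaks of all genes without a Wtap-CKO counterpart among those with a log10 p at or below that of each Popeye peak (named below the bars, with counts). Right, the percentage without counterpart by the place of a peak among those of its gene, for Wtap-CKO (left bars) and Wtapflox/flox (right bars). Error bars are exact 95% binomial intervals and cover counting error only. The left bars lie between 3.76% and 11.1%, and each includes the named peak itself. The last rests on 9 peaks, and the 1 without counterpart is the Popdc2 3′ peak, so that bar is no background for it.

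The genes most like each Popeye gene were sought among the other 697 genes with 2 Wtapflox/flox peaks and 1 Wtap-CKO peak. Likeness was the sum of 4 absolute log2 differences, in the fold and in minus log10 p of the strongest peak of each of the 2 lists. Nearest to Popdc2, at 4.21 log2 units, was Pln, which encodes the calcium pump inhibitor phospholamban and also lacked a counterpart for its 3′ peak. The Pln peak in Wtap-CKO had a fold of 2.89 and a log10 p of -84.3. The Pln peak with the smallest p in Wtapflox/flox had a fold of 2.79 and a log10 p of -1440. Peaks of the minus-strand gene Gm47644 overlapped each Pln peak, by 150 bases in Wtap-CKO and by 375 and 301 bases in Wtapflox/flox, and the calls do not separate the 2 genes. H1f0, a linker histone gene (4.81), and Cdh5, the gene of vascular endothelial cadherin (4.91), followed, and both had counterparts for both peaks. Bves had closer neighbours in Etohd2 (1.19), Aimp2 (1.21) and Grap (1.34). Etohd2 and Aimp2 lacked a counterpart for the 3′ peak, and Grap did not. For Popdc3 they were Klhl30 (1.14), Smim20 (1.16) and Mrs2, a mitochondrial magnesium channel gene (1.30). Klhl30 lacked a counterpart for its 3′ peak, while Smim20 and Mrs2 lacked one for the 5′ peak. Popdc2 thus stood 4.21 units or more from the other genes with these peak numbers.

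Other genes that make, sense or break down cAMP were read from a list of 29, chosen with results of these data known. Peaks in both lists were found for 23 of them, in the Wtap-CKO list only for 4 (Adcy3, Adcy7, Prkar2b and Pde10a), in the Wtapflox/flox list only for 1 (Hcn2), and in neither for 1 (Prkar1b). Of all 12182 genes with a peak, 9456 had peaks in both lists, 1448 in the Wtap-CKO list only and 1278 in the Wtapflox/flox list only. The number of peaks was lower in Wtap-CKO for 10 genes, higher for 8 and equal, above 0, for 10. Over all genes with a peak it was lower for 25.6%, higher for 30.4% and equal for 44%. In the Wtap-CKO list 13 of 58 peaks (22.4%, 12.5 to 35.3) had no counterpart, and in the Wtapflox/flox list 24 of 67 (35.8%, 24.5 to 48.5). Akap6, which encodes an anchoring protein that holds protein kinase A at the nuclear envelope of muscle cells, had 2 Wtap-CKO and 10 Wtapflox/flox peaks and gave 8 of the 24. Without it, 16 of 57 Wtapflox/flox peaks (28.1%, 17 to 41.5) had no counterpart.

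Among the other cAMP effectors, Prkaca, the catalytic subunit gene of protein kinase A, had 1 shared peak (fold 18.2 in Wtap-CKO, 6.20 in Wtapflox/flox), and Prkar1a, a regulatory subunit gene, had 1 as well (9.38 and 12.3). Rapgef3 and Rapgef4, the Epac genes, had 1 peak each in Wtap-CKO hearts, against 2 and 1 in Wtapflox/flox hearts. Hcn4, the main pacemaker channel gene of the sinus node, had 3 Wtap-CKO and 4 Wtapflox/flox peaks, of which 1 and 2 had no counterpart. Adcy6, a main adenylyl cyclase gene of cardiomyocytes, had 5 Wtap-CKO and 3 Wtapflox/flox peaks, all with counterparts. In the 18 genes of this list with several Wtapflox/flox peaks, the 3′ peak lacked a counterpart in 2 and the 5′ peak in 7. In the Popeye genes the counts were 3 of 3 for the 3′ peak and 1 of 3 for the 5′ peak. The 2 sets are not alike, since all 3 Popeye genes had 2 Wtapflox/flox peaks and 1 Wtap-CKO peak. Among all genes with these peak numbers the 3′ peak lacked a counterpart in 399 of 698 (57.2%). The 5′ peak lacked one in the 215 (30.8%) with a counterpart for the 3′ peak only and in the 46 (6.59%) with none. Among all genes with several Wtapflox/flox peaks, 25.6% of the 3′ peaks and 20.7% of the 5′ peaks lacked one.

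Of 10 genes whose proteins have been reported to bind Popeye proteins, 8 had peaks in both lists, Vamp3 in the Wtap-CKO list only and Dmd in neither. Among all 12182 genes with a peak, 9456 had peaks in both lists and 1448 in the Wtap-CKO list only. No counterpart was found for 6 of 27 Wtap-CKO peaks (22.2%, 8.62 to 42.3) and for 1 of 18 Wtapflox/flox peaks (5.56%, 0.141 to 27.3), that of Dysf. These counts moved with the threshold. At a fold of at least 2 they were 6 of 21 and 4 of 18, and at q at or under 0.001 they were 2 of 21 and 1 of 17. Kcnk2, the TREK-1 gene, had 2 Wtap-CKO peaks and 1 Wtapflox/flox peak (highest fold 31.9 and 9.22). Cav3, the muscle caveolin gene, had 2 in each list (7.37 and 5.09). Xirp1, an intercalated disc gene, had 8 Wtap-CKO and 4 Wtapflox/flox peaks (4.59 and 9.90), all with counterparts. Leaving out Dmd, which had no peak, 6 partner genes had more called peaks in Wtap-CKO hearts, 1 had fewer and 2 had as many. Of all genes with a peak, 30.4% had more, 25.6% fewer and 44% as many.

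**Figure D4:**
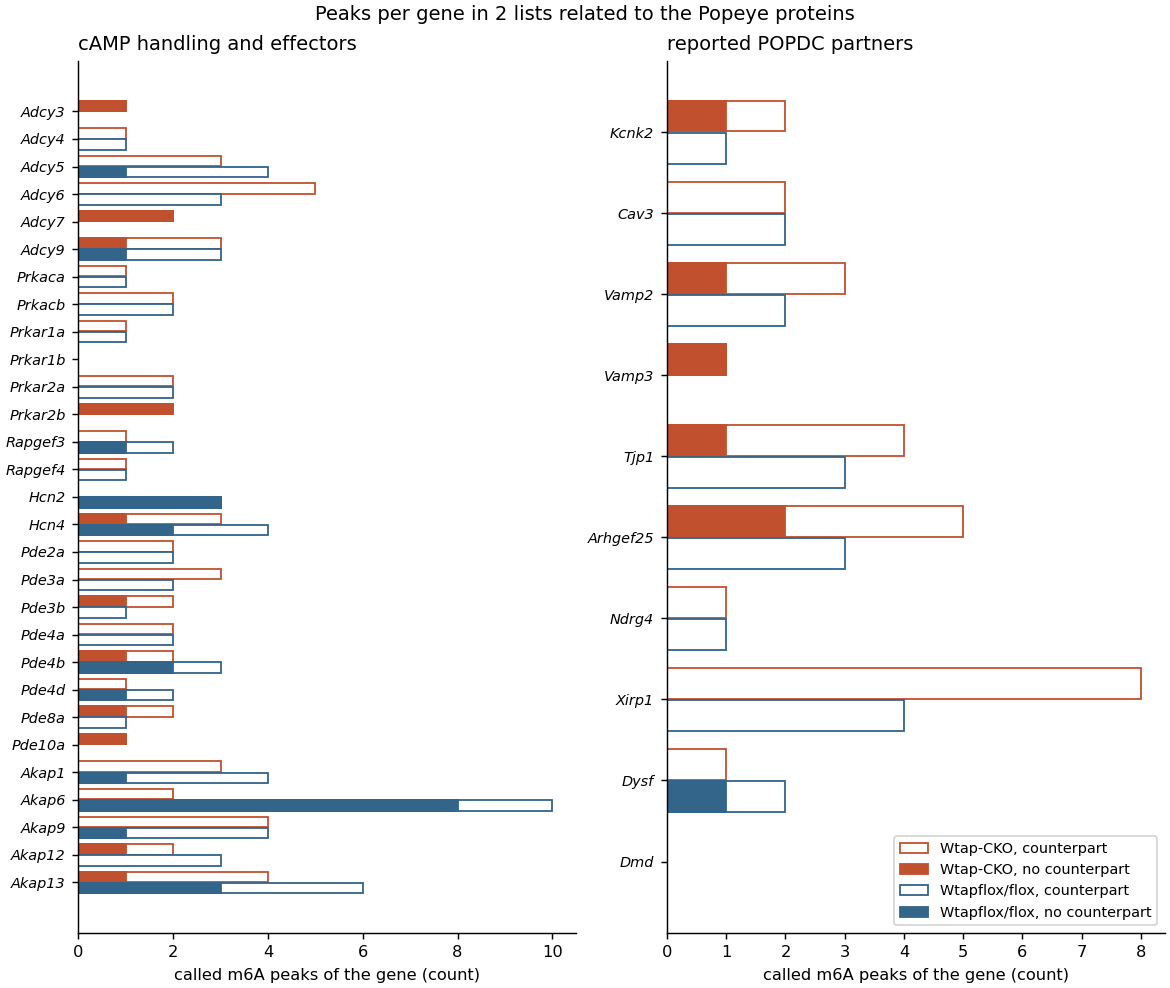
Number of called m6A peaks per gene for 29 genes of cAMP handling (left) and 10 genes of reported Popeye protein partners (right), with Wtap-CKO bars above Wtapflox/flox bars and the filled part counting peaks without a counterpart. Akap6 has 10 Wtapflox/flox peaks, 8 of them without counterpart, and Xirp1 has 8 Wtap-CKO peaks, all with one.

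The lists were checked against markers of heart cells. All 10 cardiomyocyte markers had peaks in both lists, and none of 10 skeletal muscle markers had a peak in either. Cardiomyocyte markers had 32 Wtap-CKO and 52 Wtapflox/flox peaks, of which 2 and 21 had no counterpart, and 17 of the 21 were in Ttn. Without Ttn it was 2 of 28 and 4 of 31. Fibroblast markers had 21 Wtap-CKO and 13 Wtapflox/flox peaks (9 and 1 without counterpart), and endothelial markers had 17 and 14 (7 and 2). Of 8 erythroid markers, 3 had peaks in both lists and 5 in neither, with 5 Wtap-CKO and 6 Wtapflox/flox peaks (0 and 1). Over all genes, 24.5% of Wtap-CKO and 23.9% of Wtapflox/flox peaks had no counterpart. In whole hearts fewer cells of a type and less RNA per cell cannot be told apart, the lists give no transcript levels, and the part of either in the Popeye results was not tested. Wtap itself had 4 Wtap-CKO and 3 Wtapflox/flox peaks, which do not check the deletion.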

How the data were processed

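RNA pooled by genotype from hearts of 4-day-old mice was fragmented to about 100 nt, incubated for 2 h with an anti-m6A antibody and sequenced as IP and input, per the labels' protocols. Knockout titles carry another abbreviation than the genotype label, which was used for grouping. Per the design text, the authors called peaks with exomePeak 2.16.0 for each IP over its own input (q threshold 0.05). Build GRCm39 is named in the submitters' processing notes, as are HOMER 4.9.1, BWA 0.7.12 and fastp 0.19.11, with no role stated.

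The deposited lists give, per peak, exonic blocks, a fold (the linear IP to input ratio), a p-value, and log10 p and log10 q, which the authors' lists let reach minus infinity and which were read as a score. Without read counts, library depth is unknown and was not corrected for. No source used here states how IP and input were scaled.

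Comparisons used scipy 1.17.1, pandas 2.3.3 and numpy 2.4.6 under Python 3.11.15, and matplotlib 3.10.9 drew the figures. Shares have exact (Clopper-Pearson) 95% intervals, which cover counting error only. Overlap code was tested on simulated data. The members, gene lists and naming rule were chosen with earlier results of these data known. The rule took the 3 members, Wtap, the 3 genes most like each member and any gene of the cAMP and partner lists. All 3 members matched a RefSeq table of GRCm38.p6 by symbol, used for names and neighbours only. The cAMP list was planned with 1 more gene, which is not reported here. Coding and untranslated regions and sequence motifs were not analysed here.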

Additional observations from a re-analysis of the deposited data

How the results depend on the processing

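The Popeye counts kept their values under an overlap of 50% (of the shorter peak, or of each), whole spans, either strand, q at or under 0.01 and 0.001, a fold of at least 2, the same number of peaks and merged peaks. A fold of at least 4 left 1 Wtap-CKO and 4 Wtapflox/flox Popeye peaks to compare, with neither Wtapflox/flox peak of Bves among them. Of these, 0 Wtap-CKO and 1 Wtapflox/flox peaks had a counterpart, and that of the Popdc2 5′ peak was then a Gm21987 peak. The share over all peaks is not given for this setting. With peaks within 100 bases counted as overlapping, added after the data were seen, 0 Wtap-CKO Popeye peaks lacked one. The shares over all genes without counterpart (Wtap-CKO, then Wtapflox/flox) were 26.2% and 25.6% at 50% of the shorter peak, 22.2% and 23.3% at q at or under 0.001, 25.3% and 24.8% at a fold of at least 2, 23.2% and 22.8% within 100 bases, and, for Wtap-CKO, 23.5% at q at or under 0.01 and 23.4% with the same number of peaks. In the partner list 2 of 21 Wtap-CKO peaks lacked one at q at or under 0.001, and 4 of 18 Wtapflox/flox peaks at a fold of at least 2. Above the median fold were 0 Wtap-CKO peaks when ranked among peaks of q at or under 0.001, 0 in either list among 1 peak per gene, and 0 Wtapflox/flox peaks among peaks of like width. Each setting changed the overlap rule, the peaks compared or the peaks ranked against, and other causes were not tested. No paired analysis was possible because each group held 1 library. Signal over background could not be judged without read counts.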
